A study of Mus musculus with 8 samples.

Results

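The nuclear-encoded subunits of respiratory complexes II to V were examined in bulk RNA-seq of mouse brain. Members were chosen by gene name alone: all 49 protein-coding genes named Sdha to Sdhd, Uqcr, Cyc1, Cox4 to Cox8 or Atp5 among the 54532 genes of the first table, 4 of complex II, 9 of complex III, 18 of complex IV and 18 of complex V. The second table lists 28229 genes and holds 47 of them. Cox8c and a second identifier of Atp5o had 0 counts in all 4 libraries of the first table and are the 2 members the second table does not list. Of the 49 members, 46 passed the filter on low counts in the first table and 45 in the second.

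All mice were C57BL/6 and were sampled on Day 21. The first table holds 2 PTS + RS libraries, from mice with photothrombotic stroke, a light-induced cortical infarct, followed by daily restraint, and 2 RS libraries, from mice with restraint stress alone. These 4 libraries are labelled cortex. The study's results speak of damaged cortex, and a figure caption of "nearby damaged cortex". The second table holds 2 RGFP109 libraries and 2 NaCl libraries, all from PTS + RS mice. RGFP109 is a histone deacetylase inhibitor that was injected under the skin at 60 mg/kg once a day, and NaCl is the control injection. In both groups of the second table, replicate 1 is labelled cortex and replicate 2 amygdala. It is not stated whether a library holds 1 mouse or a pool, so a p-value measures the spread between these libraries only. In bulk tissue, fewer cells of a type and less RNA per cell cannot be told apart.

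The respiratory chain passes electrons from NADH and succinate to oxygen and stores the energy as a proton gradient across the inner mitochondrial membrane. Complex II (succinate dehydrogenase) is also an enzyme of the citric acid cycle, complex III moves electrons from ubiquinol to cytochrome c, complex IV (cytochrome c oxidase) passes them to oxygen, and complex V (ATP synthase) uses the gradient to make ATP. All subunits of complex II are nuclear-encoded, whereas complexes III, IV and V also need subunits made from mitochondrial DNA. Neurons depend heavily on this pathway for ATP.

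The counts on genes summed to between 15902013 and 21712033 per library, of which the members took between 88924 and 125029 counts. Members made up 0.530% and 0.551% of the counts in the PTS + RS libraries, 0.598% and 0.599% in the RS libraries, 0.638% and 0.576% with RGFP109, and 0.667% and 0.664% with NaCl. Of the 12 neuron markers looked at, none was at 0 in any library. Some libraries went against their tissue labels. The 10 olfactory bulb markers summed to 2104 CPM (counts scaled to library size) in NaCl replicate 1, labelled cortex, against 81.3 to 152 CPM in the other 7 libraries, and the bulb gene S100a5 was at 64.3 CPM there and 0 elsewhere. The 10 striatal markers summed to 1373 and 1514 CPM in the 2 libraries labelled amygdala, against 174 to 257 CPM in the others, while the 10 amygdala markers did not set these 2 libraries apart (449.9 and 445 CPM, against 430.5 and 989.8 CPM in the 2 labelled cortex). Choroid plexus markers varied from 16.7 to 3936 CPM over the 8 libraries. Results of the second table are therefore given by label, and with and without NaCl replicate 1. CPM are scaled within each table, so levels of the 2 tables stand side by side without a test.

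Level per length, as CPM per kilobase of the deposited gene length, spanned a wide range within complexes. By this length, Cox8a had the highest mean level over the first table at 481 CPM per kb, followed by Cox6a1 at 369, Atp5b at 223 and Atp5a1 at 223 CPM per kb. The last 2 encode the β and α subunits that form the catalytic head of ATP synthase. The deposited length is 4237 bases for Atp5b and 545 for Cox8a, whereas their main annotated transcripts have 1916 and 550 bases. The order of genes thus depends on the length used, and an order by transcript length was not made. In complex II, Sdha, the flavoprotein that oxidizes succinate, was highest at 79.3 CPM per kb, and the membrane anchor Sdhc lowest at 20.3 CPM per kb. Complex III was the most even of the larger complexes, from 36.7 CPM per kb for Uqcrq to 101 CPM per kb for Uqcr10.

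**Figure D1:**
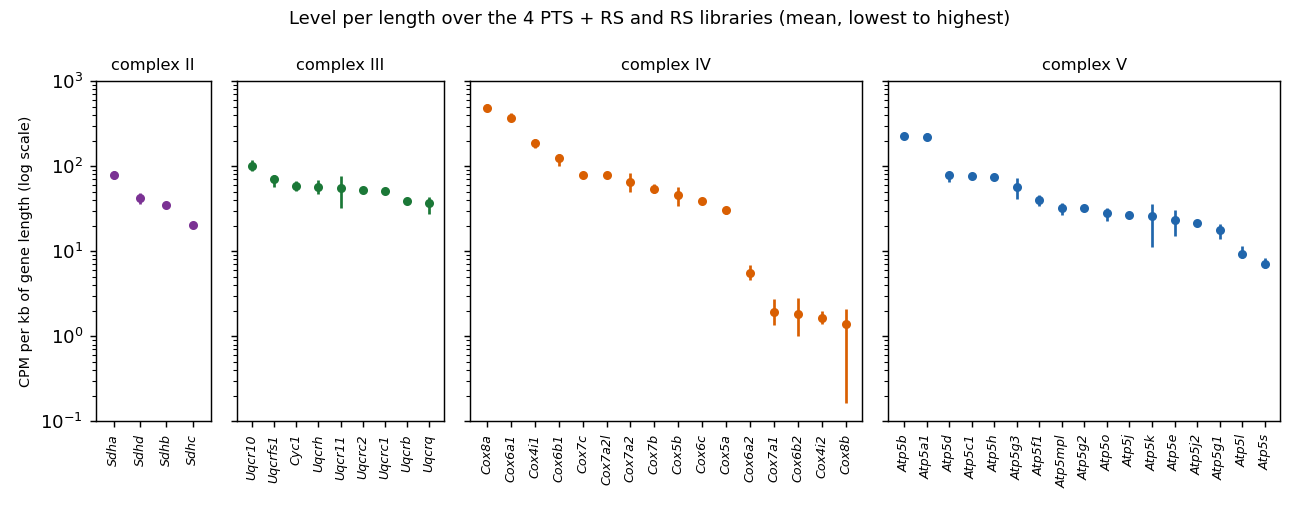
Level per length (CPM per kb of gene length, log scale) of each member with counts in all 4 PTS + RS and RS libraries, by complex. Points are means and bars run from the lowest to the highest library. By the deposited gene length, Cox8a stands at the top with 481 CPM per kb. The muscle and testis isoforms of complex IV lie at or below 5.56 CPM per kb, the level of Cox6a2.

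Complex IV has subunits with a widely expressed and a tissue-restricted isoform. The widely expressed one took nearly all of the level per length in every library. Cox4i1 made up between 98.9% and 99.5% of the COX4 pair over the 8 libraries, the rest being Cox4i2, the isoform best known from lung. Cox6a1 made up between 97.8% and 99.3% of its pair with the heart and muscle isoform Cox6a2. Cox7a2 made up between 96.3% and 98.8% of its pair with the muscle isoform Cox7a1. Cox6b1 took between 97.8% and 99.0% of its pair with the testis isoform Cox6b2, and Cox8a between 99.6% and 99.97% of its pair with the muscle isoform Cox8b. Cox7b2 stayed at or under 0.421 CPM in all 8 libraries and was not tested.

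The first comparison asked how the cortex of stressed mice with an infarct differed from that of mice with stress alone. Members were lower rather than higher in the PTS + RS group: of the 46 tested, 33 had a log2 fold change below 0 and 13 one above 0, beside 50.3% and 49.7% of all 17581 genes tested. With p-values of edgeR's quasi-likelihood test adjusted after Benjamini and Hochberg across every gene tested, 4 members fell at an adjusted p under 0.05 and 0 rose. These were Atp5g3 and Atp5e of complex V and Uqcr11 and Uqcrq of complex III. Among all genes tested, 0.586% fell and 2.96% rose by the same rule. No member passed a limit of 1 on the log2 scale as well, beside 0.091% of all genes lower and 2.12% higher. At an unadjusted p under 0.05, 21 members were lower and 1 higher, beside 7.55% and 10.3% of all genes. In 29 members both PTS + RS libraries were below both RS libraries, and in 5 both were above, beside 24.5% and 25.7% of all genes. The number called depended on the libraries: without PTS + RS replicate 1 it was 11 lower and 3 higher members, and without PTS + RS replicate 2 it was 20 lower and 0 higher. Calls over all genes rose too, to 753 lower and 1018 higher of 18250 genes in the first of these fits and 1278 lower and 1413 higher of 18374 genes in the second, against 103 lower and 521 higher with all libraries. Uqcr11, Atp5e and Atp5g3 passed in each of these fits and without either RS library. The median log2 fold change of the members was -0.21, against -0.0015 over all genes.

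**Figure D2:**
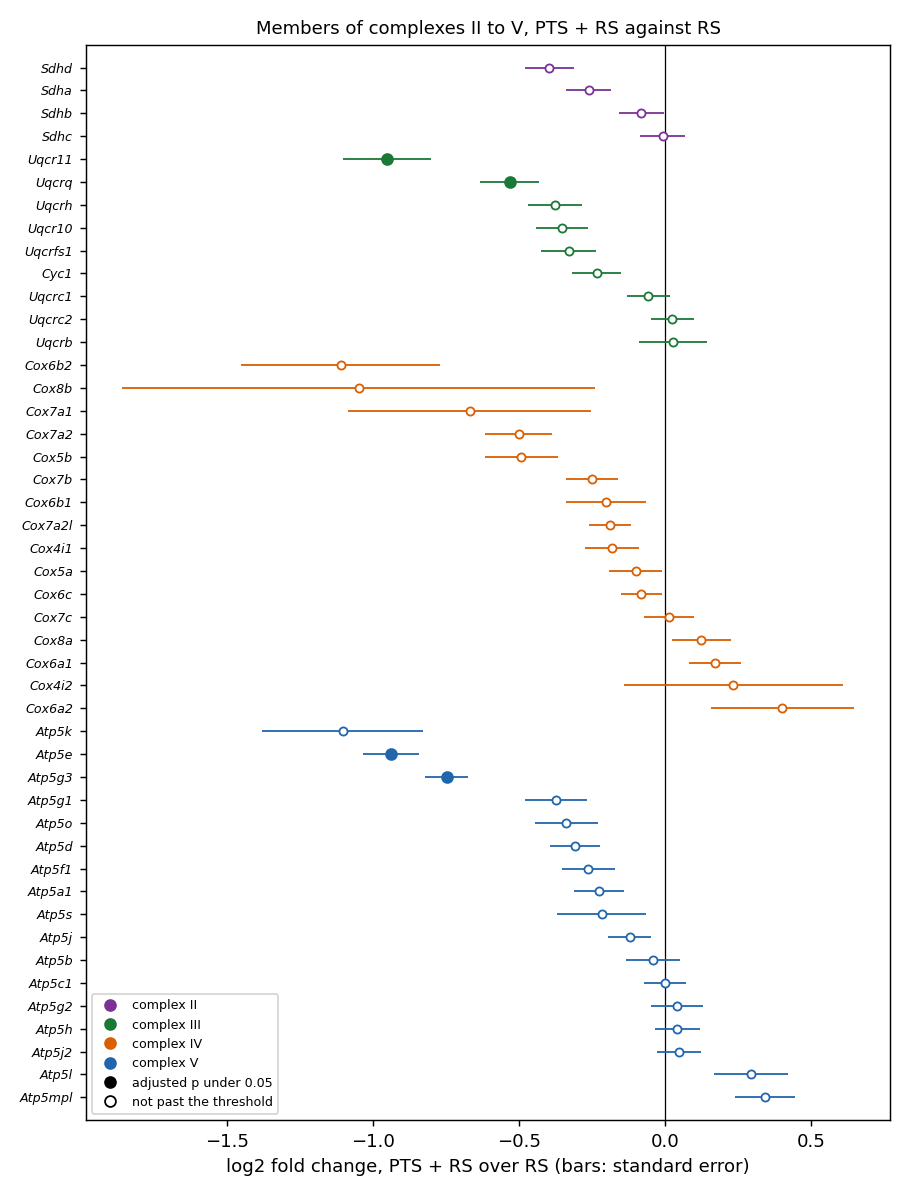
Log2 fold change of PTS + RS over RS for the 46 tested members, grouped by complex. Points are edgeR estimates, bars are standard errors, and filled points mark the 4 members past an adjusted p of 0.05, all of them below 0.

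The complexes differed in how far their members went. The median log2 fold change was -0.17 over the 4 members of complex II, -0.33 over the 9 of complex III, -0.18 over the 16 tested of complex IV and -0.22 over the 17 tested of complex V. All 4 members of complex II, 7 of 9 in complex III, 11 of 16 in complex IV and 11 of 17 in complex V were below 0. Members past the adjusted threshold were 2 of complex III and 2 of complex V, with 0 in complexes II and IV; at an unadjusted p under 0.05 those 2 complexes had 2 and 5 lower members. With DESeq2, 7 members passed in all, among them Cox5b and Cox7a2 of complex IV, beside 168 lower and 577 higher of 30105 genes in all. These medians are over few genes that are not replicates of a condition, and the difference between complexes was not tested.

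The summed CPM of each complex gives the share of the library that it took. Complex II summed to 477 and 494 CPM in the PTS + RS libraries and 566 and 561 CPM in the RS libraries, a difference of -13.9% between the geometric means. Complex III summed to 747 and 788 CPM against 892 and 898 CPM (-14.3%), and complex V to 2602 and 2796 CPM against 3015 and 3011 CPM (-10.5%). In these 3 complexes the groups did not overlap. Complex IV summed to 1365 and 1541 CPM against 1519.5 and 1542 CPM (-5.26%), and here PTS + RS replicate 2 lay among the RS libraries. The overlap did not hold in another summary: as the mean log2 CPM of the 10 members of complex IV left without tissue isoforms and Cox7a2l, the PTS + RS libraries stood at 6.68 and 6.86 and the RS libraries at 6.93 and 6.91, without overlap and with a difference of -9.99%. The sums were not tested, and an exact permutation test of 2 libraries against 2 cannot give a two-sided p under 0.333.

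**Figure D3:**
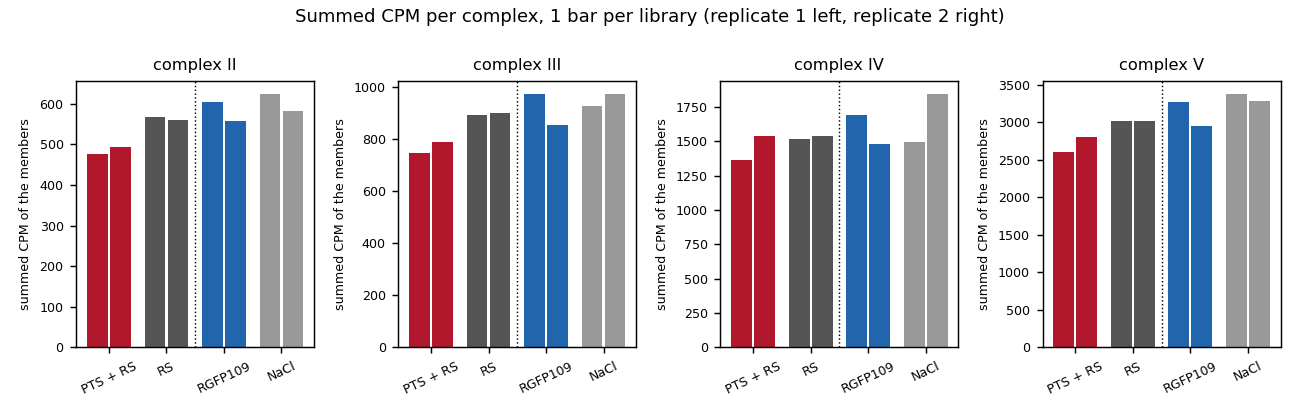
Summed CPM of the members of each complex, 1 bar per library, for the 4 groups. The dotted line separates the 2 tables, which were scaled separately. PTS + RS bars are below both RS bars in complexes II, III and V.

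In complex III, 2 small subunits fell. Uqcr11 encodes the smallest subunit of the complex and lies on chromosome 10, 80402997 to 80406830 on the minus strand (GRCm38). It stood at 20.6 and 27.5 CPM in the PTS + RS libraries and 43.5 and 49.5 CPM in the RS libraries. Even the higher PTS + RS library lay far below the lower RS library, with a log2 fold change of -0.95 ± 0.15 (SE, n = 2 libraries per group; adjusted p = 0.0205, edgeR). Uqcrq, the small ubiquinone-binding subunit (chromosome 11, 53427922 to 53430831 on the minus strand), stood at 50.02 and 59.8 CPM in the PTS + RS libraries and 79.2 and 79.6 CPM in the RS libraries. Its groups did not overlap either, and its log2 fold change was -0.53 ± 0.10 (adjusted p = 0.04, edgeR). This call was lost without either RS library, with log2 fold changes of -0.54 and -0.53, where the adjusted p was 0.126 and 0.136 by edgeR.

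The subunits that carry the redox centres of complex III lay closer to 0. The Rieske iron-sulfur protein Uqcrfs1 stood at 77.5 and 91.3 CPM in the PTS + RS libraries and 106 and 106 CPM in the RS libraries, with a log2 fold change of -0.33 ± 0.09 (adjusted p = 0.126, edgeR). Cytochrome c1, encoded by Cyc1, stood at 111 and 119.9 CPM in the PTS + RS libraries and 129 and 143 CPM in the RS libraries, with a log2 fold change of -0.23 ± 0.08 (adjusted p = 0.212, edgeR). In both genes the PTS + RS libraries were below the RS libraries without passing the adjusted threshold. The large core proteins, which face the matrix, lay close to 0. Uqcrc1 stood at 213 and 202 CPM in the PTS + RS libraries and 219 and 213 CPM in the RS libraries, and Uqcrc2 at 134 and 134 CPM in the PTS + RS libraries and 135 and 128 CPM in the RS libraries. Their log2 fold changes were -0.06 ± 0.07 and 0.03 ± 0.07. Of the other small subunits, Uqcr10 stood at 50.9 and 53.0 CPM in the PTS + RS libraries and 63.1 and 69.8 CPM in the RS libraries. Uqcrh, the hinge protein that binds cytochrome c1, stood at 58.4 and 63.8 CPM in the PTS + RS libraries and 83.9 and 74.6 CPM in the RS libraries. Their groups did not overlap, and their log2 fold changes of -0.35 ± 0.09 and -0.38 ± 0.09 missed the threshold (adjusted p = 0.0888 and 0.0867, edgeR). Uqcrb, a ubiquinone-binding subunit, had the highest log2 fold change of the complex at 0.03 ± 0.12, and its libraries overlapped (31.4 and 36.6 CPM in the PTS + RS libraries and 31.8 and 35.0 CPM in the RS libraries).

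The lowest log2 fold changes of complex V were those of Atp5k, Atp5e and Atp5g3. Atp5e encodes the ε subunit of the central stalk and lies on chromosome 2, 174461072 to 174464105 on the minus strand. It stood at 26.7 and 29.1 CPM in the PTS + RS libraries and 53.5 and 53.4 CPM in the RS libraries. The replicates were close in both groups, and the log2 fold change was -0.94 ± 0.10 (adjusted p = 0.00345, edgeR). Atp5k encodes subunit e, a membrane subunit at the interface of ATP synthase dimers. It had the lowest log2 fold change of the complex, -1.11 ± 0.28, with 6.95 and 13.5 CPM in the PTS + RS libraries and 21.74 and 22.3 CPM in the RS libraries. The 2 PTS + RS libraries lay nearly as far from each other as the higher of them lay from the RS libraries, and the adjusted p was 0.0876 (edgeR). The catalytic β subunit Atp5b stood at 900.4 and 965 CPM in the PTS + RS libraries and 958 and 962 CPM in the RS libraries, and its log2 fold change was -0.04 ± 0.09. The α subunit Atp5a1 stood at 632 and 656 CPM in the PTS + RS libraries and 759 and 746 CPM in the RS libraries, with a log2 fold change of -0.23 ± 0.09 (adjusted p = 0.234, edgeR). The head subunit genes thus lay at or a little below the RS level. The γ subunit of the same central stalk, Atp5c1, lay at a log2 fold change of 0.0004 ± 0.07, and the δ subunit Atp5d at -0.31 ± 0.09 (adjusted p = 0.118, edgeR). At the other end, Atp5mpl, a small proteolipid of the membrane part, had the highest log2 fold change at 0.34 ± 0.10, with 44.7 and 43.9 CPM in the PTS + RS libraries and 32.8 and 37.1 CPM in the RS libraries. It did not pass the threshold (adjusted p = 0.138, edgeR).

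The outer stalk holds the head still while the ring turns. Its subunits lay below or near 0 without passing the threshold. Atp5o, the oligomycin sensitivity protein at its top, stood at 44.8 and 54.2 CPM in the PTS + RS libraries and 63.6 and 61.6 CPM in the RS libraries (log2 fold change -0.34 ± 0.11). Subunit b, encoded by Atp5f1, stood at 141 and 160.4 CPM in the PTS + RS libraries and 188 and 173 CPM in the RS libraries (log2 fold change -0.26 ± 0.09). In both genes the groups did not overlap. Atp5j, coupling factor 6, had a log2 fold change of -0.12 ± 0.07, and subunit d, encoded by Atp5h, one of 0.04 ± 0.08. Among the membrane subunits, Atp5l (subunit g) stood at 56.7 and 73.6 CPM in the PTS + RS libraries and 53.0 and 53.3 CPM in the RS libraries (log2 fold change 0.29 ± 0.13, adjusted p = 0.288, edgeR). Atp5j2, which encodes subunit f, stood at 71.7 and 71.6 CPM in the PTS + RS libraries and 69.1 and 69.5 CPM in the RS libraries (log2 fold change 0.05 ± 0.07). Atp5s, a coupling factor outside the core enzyme, had a log2 fold change of -0.22 ± 0.15.

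Subunit c forms the ring that turns in the membrane part of ATP synthase. The mouse has 3 genes for it, Atp5g1, Atp5g2 and Atp5g3, whose precursors differ in the targeting peptide but give the same mature protein. Atp5g3 (chromosome 2, 73908447 to 73911326 on the minus strand) stood at 90.1 and 93.1 CPM in the PTS + RS libraries and 151 and 157 CPM in the RS libraries. The replicates of each group lay within a few CPM of each other, and Atp5g3 had the lowest p of all members, with a log2 fold change of -0.75 ± 0.07 (adjusted p = 0.003, edgeR). Atp5g1 stood at 68.9 and 83.1 CPM in the PTS + RS libraries and 94.7 and 102 CPM in the RS libraries, with a log2 fold change of -0.37 ± 0.11 (adjusted p = 0.121, edgeR). Atp5g2 stood at 52.2 and 56.6 CPM in the PTS + RS libraries and 54.1 and 51.7 CPM in the RS libraries, its libraries overlapped, and its log2 fold change was 0.04 ± 0.09 (adjusted p = 0.861, edgeR). Whether these fold changes differ from each other was not tested. Per length, Atp5g3 made up 47.7% and 45.7% of the 3 genes in the PTS + RS libraries against 57.4% and 58.1% in the RS libraries. The share of Atp5g2 was 36.1% and 36.2% against 26.7% and 25.02%. Atp5g1 held between 15.95% and 18.1% in all 4. As shares of the counts, without the division by length, Atp5g1 held between 31.6% and 35.7% and Atp5g2 between 16.7% and 24.7%. The order of Atp5g1 and Atp5g2 thus depends on the gene length used.

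Since the genes end in the same protein, the letters show how a read can be told apart. The last 90 coding bases before the stop codon (GENCODE M21 transcripts, GRCm38) are printed 5′ to 3′, with bases that differ from Atp5g1 in capitals.
Atp5g1: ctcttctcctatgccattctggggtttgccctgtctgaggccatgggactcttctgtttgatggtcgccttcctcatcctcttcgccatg
Atp5g2: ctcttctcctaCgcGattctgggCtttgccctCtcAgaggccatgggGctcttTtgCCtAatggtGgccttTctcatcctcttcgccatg
Atp5g3: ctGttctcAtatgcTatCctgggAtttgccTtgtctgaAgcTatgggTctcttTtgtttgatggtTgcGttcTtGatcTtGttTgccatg
Atp5g2 differed from Atp5g1 at 12 of these 90 bases and Atp5g3 at 17. Over the coding bases of the mature protein, Atp5g2 was 84.9% and Atp5g3 80% identical to Atp5g1. No stretch of 120 bases, the read length, of the Atp5g3 transcript occurs in a transcript of another gene. By contrast, 85.9% of such stretches of Atp5g2 also occur in transcripts of 2 other genes, of which Gm10175 shares the most, and reads from them may be left uncounted or split, so the Atp5g2 level is uncertain. The same holds in part for Atp5l, with 58.8% of its stretches shared, and Cox7c, with 37.1%. None was shared for Atp5e, Atp5k, Uqcr11 or Uqcrq.

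**Figure D4:**
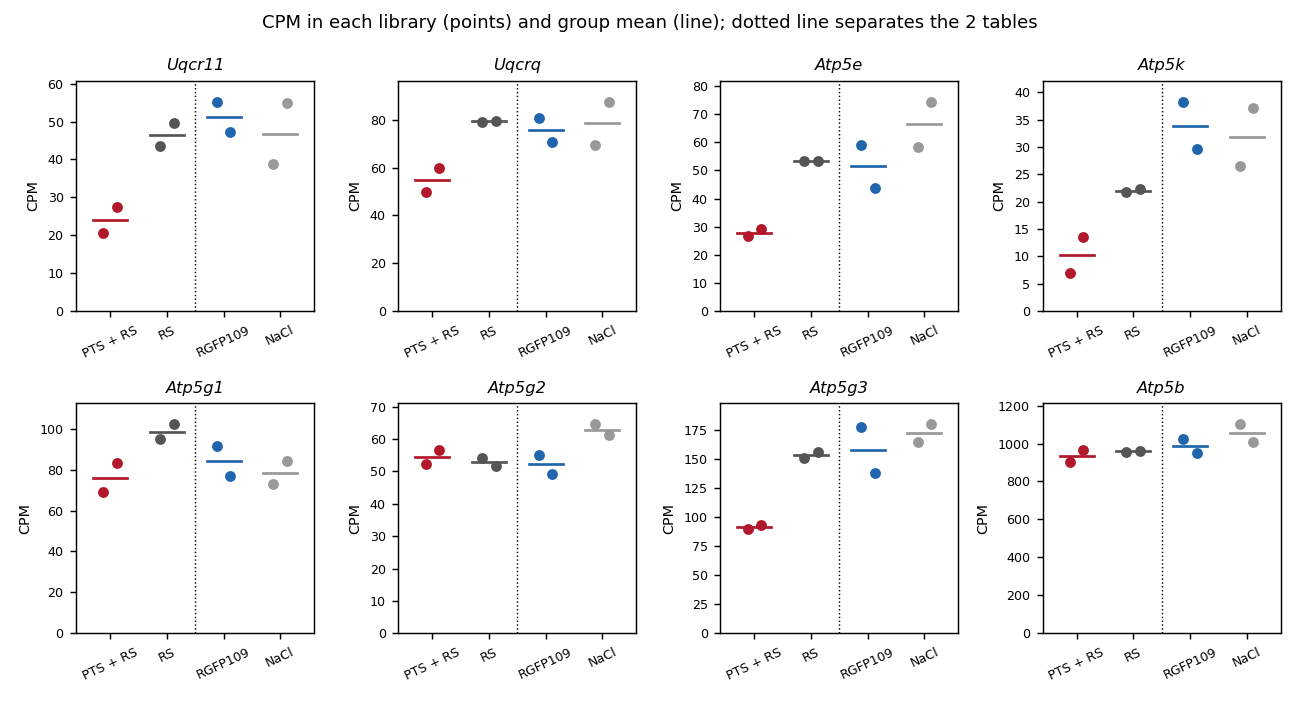
CPM in each library (points; replicate 1 left, replicate 2 right) and group mean (lines) for 2 complex III and 6 complex V members. The dotted line separates the 2 tables. In Uqcr11, Uqcrq, Atp5e, Atp5k, Atp5g1 and Atp5g3 both PTS + RS libraries lie below both RS libraries, and in Atp5g2 and Atp5b they overlap.

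In complex II all 4 members had a log2 fold change below 0, none passed the threshold, and the median was -0.17. Sdhd, a membrane anchor that binds heme and ubiquinone with Sdhc, stood at 43.8 and 45.7 CPM in the PTS + RS libraries and 59.2 and 58.7 CPM in the RS libraries. The replicates were within 2 CPM of each other in both groups, and the log2 fold change of -0.40 ± 0.08 just missed the threshold (adjusted p = 0.0532, edgeR). Sdha stood at 291 and 305 CPM in the PTS + RS libraries and 362 and 352 CPM in the RS libraries, with a log2 fold change of -0.26 ± 0.08 (adjusted p = 0.132, edgeR). The iron-sulfur subunit Sdhb stood at 75.0 and 78.8 CPM in the PTS + RS libraries and 79.6 and 83.2 CPM in the RS libraries, and the other anchor, Sdhc, at 67.3 and 64.5 CPM in the PTS + RS libraries and 65.7 and 66.9 CPM in the RS libraries. Their log2 fold changes were -0.08 ± 0.08 and -0.01 ± 0.08, within about 1 standard error of 0.

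In complex IV no member passed the adjusted threshold. Cox4i1, the largest nuclear subunit, stood at 256 and 295 CPM in the PTS + RS libraries and 302 and 322 CPM in the RS libraries, with a log2 fold change of -0.18 ± 0.09 (adjusted p = 0.368, edgeR). Cox5a, a matrix-side subunit, stood at 58.3 and 65.0 CPM in the PTS + RS libraries and 64.4 and 67.8 CPM in the RS libraries, and its groups overlapped. Cox7a2, of the membrane part, stood at 47.0 and 54.5 CPM in the PTS + RS libraries and 77.6 and 65.9 CPM in the RS libraries, with a log2 fold change of -0.50 ± 0.12 (adjusted p = 0.0684, edgeR). The zinc-binding subunit Cox5b stood at 53.7 and 68.4 CPM in the PTS + RS libraries and 81.1 and 90.7 CPM in the RS libraries, with a log2 fold change of -0.49 ± 0.13 (adjusted p = 0.0926, edgeR). In Cox5b and Cox7a2 the groups did not overlap, and these were the members of the complex nearest to the threshold. Cox7b had a log2 fold change of -0.25 ± 0.09, Cox6c one of -0.08 ± 0.07 and Cox7c one of 0.01 ± 0.08. The abundant subunits Cox6a1 and Cox8a were not lower in the PTS + RS group. Cox6a1 stood at 257 and 292 CPM in the PTS + RS libraries and 238 and 250.4 CPM in the RS libraries. Cox8a stood at 250.2 and 296 CPM in the PTS + RS libraries and 240.1 and 261 CPM in the RS libraries. Their log2 fold changes were 0.17 ± 0.09 and 0.12 ± 0.10 (adjusted p = 0.374 and 0.581, edgeR). Cox6b1 stood at 70.3 and 94.1 CPM in the PTS + RS libraries and 99.2 and 89.9 CPM in the RS libraries, its groups overlapping. Cox7a2l, a relative of Cox7a2, stood at 82.7 and 84.3 CPM in the PTS + RS libraries and 96.1 and 94.0 CPM in the RS libraries. The ends of the range in complex IV were held by low-level isoforms. Cox6b2 had the lowest log2 fold change, -1.11 ± 0.34, at 1.11 and 1.44 CPM in the PTS + RS libraries and 2.37 and 3.15 CPM in the RS libraries (adjusted p = 0.149, edgeR). Cox6a2 had the highest, 0.40 ± 0.25, at 4.73 and 3.89 CPM in the PTS + RS libraries and 3.42 and 3.09 CPM in the RS libraries (adjusted p = 0.446, edgeR). Cox7a1 stood at 0.876 and 0.718 CPM in the PTS + RS libraries and 1.104 and 1.45 CPM in the RS libraries. Cox4i2 stood at 1.23 and 1.56 CPM in the PTS + RS libraries and 1.104 and 1.26 CPM in the RS libraries, and Cox8b at 0.584 and 0.0598 CPM in the PTS + RS libraries and 0.607 and 0.757 CPM in the RS libraries. None of these 3 passed the threshold.

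Other mitochondrial genes were set beside the members. Complex I, the NADH dehydrogenase, went the same way: 31 of its 38 nuclear-encoded subunits had a log2 fold change below 0, 7 fell past the threshold and 0 rose, and the median was -0.30. The lowest adjusted p there was that of Ndufa2, with a log2 fold change of -1.39 ± 0.13 (adjusted p = 0.00246, edgeR). The other 6 that fell were Ndufb6, Ndufa1, Ndufa12, Ndufs6, Ndufs3 and Ndufa3, with log2 fold changes between -1.37 and -0.43. The subunits made from mitochondrial DNA did not share this: of the 12 tested, 6 were below 0, 0 passed, and the median was 0.02. Cytosolic ribosomal protein genes, which are short and abundant like many members, had 9 higher and 2 lower calls among 77 and 38 log2 fold changes below 0. The difference between these groups of genes was not tested. Among 23 tested assembly factors of complex IV, 2 fell, Cox14 by a log2 fold change of -0.66 ± 0.11 (adjusted p = 0.0294, edgeR) and Higd1a by -0.56 ± 0.10 (adjusted p = 0.0291, edgeR). Of the assembly factors of complexes II, III and V, 4, 6 and 4 genes, none passed. The lowest p-values were those of Sdhaf4 at -0.64 ± 0.20 and Sdhaf1 at -1.02 ± 0.39 on the log2 scale for complex II, and of Uqcc1 at -0.22 ± 0.10 and Uqcc2 at -0.26 ± 0.11 for complex III. The lowest p among the complex V factors was that of Fmc1 at a log2 fold change of -0.87 ± 0.18, whose adjusted p by edgeR was 0.0505, followed by Atpaf1 at -0.28 ± 0.10. Of 12 regulators of mitochondrial biogenesis, 8 had a log2 fold change above 0 and 4 one below 0, with a median of 0.04. Past the threshold, 1 fell and 0 rose. The one that fell was Esrra, a nuclear receptor that drives respiratory genes. It stood at 33.0 and 36.1 CPM in the PTS + RS libraries and 54.5 and 56.9 CPM in the RS libraries. Its log2 fold change was -0.69 ± 0.09 (adjusted p = 0.0113, edgeR). None of the 13 tested electron carrier genes or the 21 matrix enzyme and outer membrane genes passed. Below 0 were 9 of the 13 and 16 of the 21, beside 50.3% of all genes, and both medians were -0.08. In 11 of the 21 both PTS + RS libraries were below both RS libraries, beside 24.5% of all genes. In 4 of the 21 both were above, beside 25.7% of all genes. The lowest p in these lists was that of Etfb, of the electron transfer flavoprotein, at -1.49 ± 0.34 (adjusted p = 0.0647, edgeR), and of Idh3b, of the citric acid cycle, at -0.27 ± 0.07 (adjusted p = 0.105, edgeR). They were followed by Etfa at -0.35 ± 0.14 and the phosphate carrier Slc25a3 at -0.27 ± 0.08.

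Cell type markers moved in the same libraries. All 12 microglia markers rose past the threshold, with a median log2 fold change of 2.35, and summed to 1494 and 1271 CPM in the PTS + RS libraries against 333 and 299.98 CPM in the RS libraries. Of the 10 astrocyte markers, 5 rose and 0 fell, with sums of 7927 and 6731 CPM against 4558 and 4592 CPM. The 12 neuron markers summed to 10022 and 11734 CPM against 11432 and 11337 CPM, with 8 below 0, none past the threshold and a median of -0.07. No marker of these 3 lists was at 0 in any library. Of the other lists, 1 of 9 tested pericyte and smooth muscle markers rose, 1 of 10 striatal and 1 of 6 tested olfactory bulb markers fell, and none of the oligodendrocyte, endothelial, interneuron, cerebral cortex, striated muscle, amygdala or choroid plexus markers passed. Above 0 were 10 of 10 endothelial, 8 of 10 oligodendrocyte and 0 of 10 choroid plexus markers, beside 49.7% of all genes. The same held for 5 of 10 cerebral cortex, 3 of 8 tested amygdala, 3 of 5 tested striated muscle and 2 of 8 interneuron markers. Choroid plexus markers summed to 1681 and 51.3 CPM against 1897 and 3936 CPM, and their defining gene Ttr stood at 1455 and 14.5 CPM against 1609.5 and 3359 CPM. The part of these markers in the members' differences was not tested. Gene length and base composition were also looked at. Members with under 300 coding bases had a median log2 fold change of -0.37 (18 genes, 13 below 0, 3 past the threshold). Those with 300 or more had a median of -0.15 (28 genes, 20 below 0, 1 past the threshold). Across the 46 members, Spearman's rho of the log2 fold change was 0.21 with coding length (0.14 over the 39 without tissue isoforms, Cox7a2l and Atp5s). It was 0.14 with the length of the longest protein-coding transcript and -0.07 with GC content, points that share the same 4 libraries. Over all genes tested it was 0.06 with that transcript length and -0.15 with GC content.

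Promoters are shown because nuclear respiratory factor 1 (NRF1) and the ETS factor GABP are the textbook activators of these genes. RefSeq promoters (GRCm38.p6, 250 bases before to 50 after the start) were found for 36 of the 49 members. The NRF1 core GCATGCGC, read on both strands, was in 7 of 36 (19.4%) against 2.80% of all 27025 promoters, the ETS motif CCGGAAG in 11 (30.6%) against 9.12%, CCAAT in 20 (55.6%) against 37.9%, the TATA motif TATAAA in 3 (8.33%) against 14.2%, and the YY1 motif AAGATGGC in 2 (5.56%) against 2.88%. The 150 bases before the start are given, all from the minus strand, for 3 members with low log2 fold changes and for the 3 subunit c genes, with matches to any of these 5 motifs in capitals. Uqcr11 (chr10:80406822-80406971) has an ETS match and the first 4 bases of an NRF1 match that runs on past the start. Atp5e (chr2:174464102-174464251) has an ETS match and 2 CCAAT matches, and Atp5k (chr5:108434400-108434549) an NRF1 match on both strands, which overlap.
Uqcr11: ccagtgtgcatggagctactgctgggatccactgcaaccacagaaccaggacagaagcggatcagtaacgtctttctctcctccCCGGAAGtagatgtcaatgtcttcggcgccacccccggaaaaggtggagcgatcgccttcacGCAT
Atp5e: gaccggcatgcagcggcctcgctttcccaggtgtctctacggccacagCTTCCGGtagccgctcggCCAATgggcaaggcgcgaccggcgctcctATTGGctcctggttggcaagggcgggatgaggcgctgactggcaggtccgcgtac
Atp5k: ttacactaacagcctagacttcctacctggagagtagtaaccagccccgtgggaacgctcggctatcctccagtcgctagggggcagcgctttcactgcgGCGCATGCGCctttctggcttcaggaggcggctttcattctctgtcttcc
Of the subunit c genes, Atp5g1 (chr11:96075632-96075781) and Atp5g3 (chr2:73911327-73911476) have CCAAT matches without an NRF1 or ETS match, and Atp5g2 (chr15:102671048-102671197) has one on both strands.
Atp5g1: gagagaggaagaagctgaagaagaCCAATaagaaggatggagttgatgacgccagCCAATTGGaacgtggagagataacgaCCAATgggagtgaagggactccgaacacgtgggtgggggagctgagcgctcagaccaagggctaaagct
Atp5g2: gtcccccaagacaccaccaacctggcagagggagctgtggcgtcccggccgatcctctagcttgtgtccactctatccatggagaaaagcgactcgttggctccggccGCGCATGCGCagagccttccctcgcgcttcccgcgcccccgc
Atp5g3: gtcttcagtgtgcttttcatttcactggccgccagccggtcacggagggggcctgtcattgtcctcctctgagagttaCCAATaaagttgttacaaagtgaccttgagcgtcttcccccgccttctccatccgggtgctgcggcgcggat
A motif match did not go with one direction. The 7 members with the NRF1 core had log2 fold changes for PTS + RS over RS from -1.10 to 0.29 and a median of -0.06, against -0.29 for the 28 tested members without it. For the ETS motif the medians were -0.20 with it and -0.26 without it. Uqcrq is not among the promoters matched.

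The second comparison asked what RGFP109 changed in PTS + RS mice. No member passed the threshold by edgeR, DESeq2 or limma-voom. The same held for all 17565 genes tested by edgeR (0% called in either direction; at an unadjusted p under 0.05, 88 genes higher and 118 lower) and by limma-voom, while DESeq2 called 1 gene. At an unadjusted p under 0.05, 0 members were higher or lower, beside 0.501% and 0.672% of all genes. In each group 1 library is labelled cortex and 1 amygdala, and edgeR's biological coefficient of variation was 32.1%, against 11.4% in the first table. Of the 45 members tested, 34 had a log2 fold change below 0, beside 52.6% of all genes, and the median was -0.11, against -0.02 over all genes. Both RGFP109 libraries were below both NaCl libraries in 18 members and above in 0, beside 13.8% and 12.8% of all genes. Without NaCl replicate 1, 41 of 45 were below 0 and the median was -0.17. Without NaCl replicate 2, edgeR called 15 genes higher and 78 lower, none of them a member. Without RGFP109 replicate 2, 23 of 45 were below 0 and the median was -0.03.

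The 2 tissue labels did not give the same picture. Between the libraries labelled amygdala, 42 of 45 members were lower with RGFP109 than with NaCl, with a median log2 ratio of -0.25, beside 50.4% of all genes. Between those labelled cortex, 23 of 45 were lower, with a median log2 ratio of -0.01, beside 51.8% of all genes. The cortex-labelled NaCl library is the one with olfactory bulb markers. Each ratio rests on 1 library against 1 and has no replicate check. In complex V, all 17 tested members were lower in the amygdala-labelled pair and 10 in the cortex-labelled pair. In complex IV, 14 of 15 were lower in the first pair and 6 in the second. Complex II was lower in both pairs by sum, at 606 CPM with RGFP109 and 625 CPM with NaCl for the cortex label and 558 and 583 CPM for the amygdala label. Complex V was lower in both as well, at 3262 and 3378 CPM for the cortex label and 2952 and 3277 CPM for the amygdala label.

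**Figure D5:**
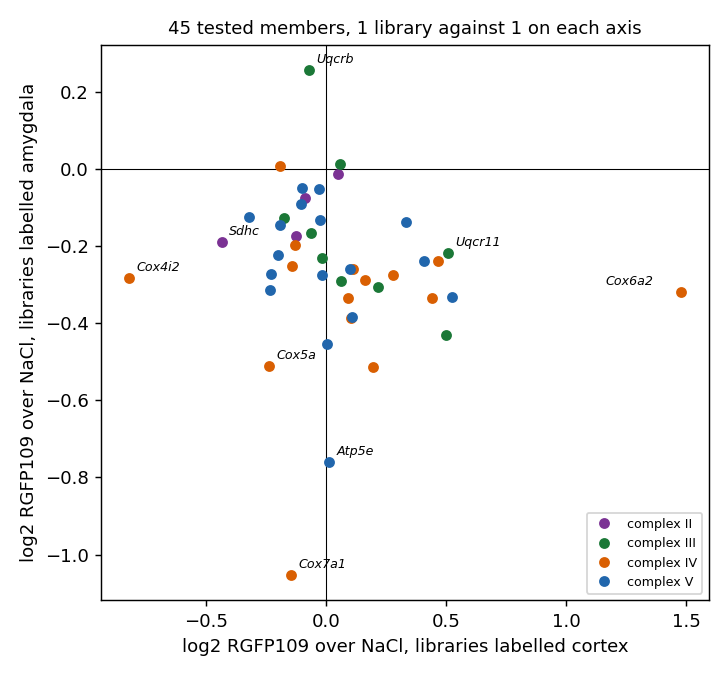
Log2 ratio of RGFP109 over NaCl for each of the 45 tested members, between the 2 libraries labelled cortex (horizontal axis) and between the 2 labelled amygdala (vertical axis), coloured by complex. Most points lie below 0 on the vertical axis (42 of 45) and on both sides of 0 on the horizontal axis (23 below).

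The members with the lowest p in this comparison were Cox5a, Sdhc, Atp5g2, Atp5o and Atp5e. Cox5a stood at 66.6 and 62.5 CPM in the RGFP109 libraries and 78.5 and 89.1 CPM in the NaCl libraries. Both RGFP109 libraries were lower, with a log2 fold change of -0.38 ± 0.16 (adjusted p = 1, edgeR). Sdhc stood at 61.0 and 59.1 CPM in the RGFP109 libraries and 82.3 and 67.4 CPM in the NaCl libraries, and its log2 fold change was -0.32 ± 0.18. Atp5g2 stood at 55.0 and 49.3 CPM in the RGFP109 libraries and 64.6 and 61.3 CPM in the NaCl libraries, with a log2 fold change of -0.27 ± 0.16. Atp5o encodes the oligomycin sensitivity protein that ties the head to the outer stalk, and stood at 63.2 and 63.3 CPM in the RGFP109 libraries and 74.1 and 76.4 CPM in the NaCl libraries, with a log2 fold change of -0.25 ± 0.15. The groups did not overlap in these 4. Atp5e did overlap, at 58.9 and 43.9 CPM in the RGFP109 libraries and 58.4 and 74.4 CPM in the NaCl libraries, with a log2 fold change of -0.37 ± 0.23. All adjusted p-values of members were 1 (edgeR). The extremes of the complexes were wide. Cox7a1 had the lowest log2 fold change, -0.67 ± 0.56, at 0.761 and 0.467 CPM in the RGFP109 libraries and 0.853 and 1.09 CPM in the NaCl libraries, and Cox6a2 the highest, 0.25 ± 0.73, at 3.996 and 4.91 CPM in the RGFP109 libraries and 1.37 and 6.14 CPM in the NaCl libraries. Uqcr11 was highest in complex III at 0.13 ± 0.23 and the hinge protein Uqcrh lowest at -0.15 ± 0.15. Atp5g1 was highest in complex V at 0.10 ± 0.18, and Sdha in complex II at 0.02 ± 0.19. These 4 standard errors were as large as the estimates or larger.

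The 4 members that fell in the first table, and Atp5k, were looked up in the second, whose mice also had PTS + RS. Uqcr11 stood at 55.2 and 47.1 CPM with RGFP109 and 38.8 and 54.8 CPM with NaCl. Uqcrq stood at 80.9 and 70.9 CPM with RGFP109 and 69.5 and 87.6 CPM with NaCl. Atp5g3 stood at 177 and 138 CPM with RGFP109 and 164 and 180.0 CPM with NaCl, and Atp5k at 38.2 and 29.5 CPM with RGFP109 and 26.6 and 37.2 CPM with NaCl. In these genes and in Atp5e, all 4 libraries of the second table were above both PTS + RS libraries of the first. The 12 microglia markers summed to 391 and 580 CPM with RGFP109 and 309 and 661 CPM with NaCl. In the first table they summed to 1494 and 1271 CPM with PTS + RS and 333 and 299.98 CPM with RS. The astrocyte gene Gfap stood at 439 and 688 CPM with RGFP109 and 290 and 622 CPM with NaCl. In the first table it stood at 2058 and 1452 CPM with PTS + RS and 372 and 354 CPM with RS. The members looked up were picked for being low in the PTS + RS libraries of the first table. The tables were also scaled separately and their libraries differ in tissue label and markers, so this is a description. Over the 39 members left without tissue isoforms, Cox7a2l and Atp5s, 29 and 25 were below both RS libraries in the 2 PTS + RS libraries, 3 and 21 in the RGFP109 libraries, and 7 and 1 in the NaCl libraries.

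No core subunit passed the threshold in the second table. Of complex II, Sdha stood at 396 and 356 CPM with RGFP109 and 383 and 359 CPM with NaCl. Sdhb stood at 84.2 and 79.4 CPM with RGFP109 and 91.8 and 89.5 CPM with NaCl, and Sdhd at 64.2 and 64.2 CPM with RGFP109 and 68.1 and 67.6 CPM with NaCl. In Sdhb and Sdhd both RGFP109 libraries were below both NaCl libraries, and in Sdha the groups overlapped. Of complex III, Cyc1 stood at 148 and 118 CPM with RGFP109 and 149 and 139 CPM with NaCl, and Uqcrfs1 at 107 and 100.1 CPM with RGFP109 and 112 and 112 CPM with NaCl. Uqcrc1 stood at 241 and 198 CPM with RGFP109 and 231 and 242 CPM with NaCl, and Uqcrc2 at 137 and 139.9 CPM with RGFP109 and 132 and 139 CPM with NaCl. In Cyc1, Uqcrfs1 and Uqcrc1 the lowest library was RGFP109 replicate 2, labelled amygdala. That library was also lowest for Cox4i1, which stood at 353 and 289 CPM with RGFP109 and 330.3 and 365 CPM with NaCl. It was lowest for both subunits of the catalytic head too, Atp5a1 at 821 and 754 CPM with RGFP109 and 837 and 782 CPM with NaCl and Atp5b at 1025 and 948 CPM with RGFP109 and 1101 and 1008 CPM with NaCl. Cox6a1 stood at 266 and 223 CPM with RGFP109 and 196 and 282 CPM with NaCl, and Cox8a at 273 and 258 CPM with RGFP109 and 225.1 and 312 CPM with NaCl. Both were highest in NaCl replicate 2 and lowest in NaCl replicate 1, the library with olfactory bulb markers.

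Of the other lists, complex I had 29 of 38 subunits below 0 with a median of -0.09, the 13 mitochondrially encoded genes had 2 below 0 with a median of 0.17, and cytosolic ribosomal protein genes 68 of 77 with a median of -0.11. None of these passed the threshold by edgeR, and none had an unadjusted p under 0.05.

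The third comparison set the libraries labelled amygdala against those labelled cortex. It uses the same 4 libraries as the comparison of RGFP109 with NaCl. No member and none of the 17565 genes passed the threshold by edgeR (0% called; at an unadjusted p under 0.05, 1197 genes higher and 773 lower) or limma-voom, while DESeq2 called 286 genes higher and 101 lower, none of them a member. No member had an unadjusted p under 0.05, beside 6.81% of all genes higher and 4.4% lower. Of 45 members 27 were lower and 18 higher in the amygdala-labelled libraries, beside 53.3% of all genes lower, with a median log2 fold change of -0.04. The groups did not overlap in 6 lower and 2 higher members, beside 22.4% and 21.6% of all genes. By complex, the median was -0.09 for II, -0.04 for III, 0.06 for IV and -0.05 for V. Without RGFP109 replicate 1, edgeR called 3 members higher (Cox6a1, Cox6a2 and Cox8a) and 1 lower (Sdhc), among 2831 higher and 2552 lower genes of all, in a fit where the only cortex-labelled library left is the one with olfactory bulb markers. Without NaCl replicate 1, 0 members were called, among 1540 higher and 1025 lower genes (0 members at an unadjusted p under 0.05).

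Cox6a2 had the lowest p and the largest log2 fold change between the labels, 1.05 ± 0.55 (adjusted p = 0.558, edgeR). It stood at 4.91 and 6.14 CPM in the amygdala-labelled libraries and at 3.996 and 1.37 CPM in the cortex-labelled ones. The low value is that of NaCl replicate 1. Pvalb, the marker of a class of fast-spiking interneurons, was also lowest in that library, at 6.14 CPM against 18.9 to 39.1 CPM in the other 7 libraries, while the sum of the 8 interneuron markers did not set it apart (531 CPM, against 476 to 604 CPM). The part of these cells was not tested. The next lowest p-values were those of Uqcrb at -0.25 ± 0.16, Cyc1 at -0.21 ± 0.15, Cox4i2 at 0.47 ± 0.45 and Cox8a at 0.19 ± 0.19 (adjusted p from 0.629 to 0.756, edgeR). Striated muscle markers summed to 19.3 to 30.0 CPM over the 8 libraries, with Ckm at 0 to 0.234 CPM.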

How the data were processed

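RNA was sequenced from 8 libraries in 2 tables. Per the labels and the study's methods, the authors aligned reads to GRCm38 (mm10) with STAR 2.4.0 and deposited raw counts per gene made with HTSeq 0.6.1, with gene lengths in bases. The strand setting of the counting is not given in the sources used here. Deposited columns of FPKM and of the authors' own comparisons (fold changes and p-values) were not used. Counts were fitted per table with edgeR 4.0.16 (R 4.3.3): TMM scaling, filterByExpr, the quasi-likelihood test, with p-values adjusted over all genes tested and a threshold of 0.05. A standard error is the log2 fold change divided by the square root of F. CPM are counts scaled by edgeR to the TMM-adjusted library size. Depth ran from 15902013 to 21712033 counts, and replicates differed beyond sampling noise (chi-square over degrees of freedom from 4.59 to 75.5).

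The members, gene lists and named genes were chosen with earlier results of these data known. Every member is counted. Values per library are given for core subunits, isoform sets, the 5 members with the lowest p in each comparison, and the highest and lowest log2 fold change in each complex. Other members are given with values chosen after they were seen. From other lists, called genes or, with none called, the 2 with the lowest p are named for the first comparison; called ribosomal protein and marker genes are given by number only, and the lists of the other comparisons by count. Alternatives were RLE scaling, DESeq2 1.42.0, limma-voom (limma 3.58.1), no count filter, a limit of 1 on the log2 fold change, blocks, and each library left out. The tests were tried on simulated counts with the same biological coefficient of variation for every gene. These counts lacked the tissue marker differences seen here, and no result given rests on them. With 1 library left out, the lone library is assumed to vary like the others. Sequences came from RefSeq promoters and GENCODE M21 transcripts of GRCm38. Protein sequences were not used here.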

Additional observations from a re-analysis of the deposited data

Results flagged for a closer look

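The response of complexes III and IV to RGFP109 went in opposite directions under the 2 tissue labels. The log2 ratio of the summed CPM, RGFP109 over NaCl, was 0.0695 for complex III between the libraries labelled cortex and -0.188 between those labelled amygdala. For complex IV it was 0.176 and -0.321. Atp5e had log2 ratios of 0.0138 and -0.759 for the cortex and amygdala labels. Each ratio is 1 library against 1, and the difference between the labels was not tested. NaCl replicate 1, the denominator of the cortex-labelled ratios, is the library with olfactory bulb markers, and its part in the difference was not tested.

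Pseudogenes named after the members lay outside every comparison. The highest count among the 8 that the first table lists was 4, for Atp5l2-ps in RS replicate 1, so very few reads were assigned to the copies with such names. Counts of copies under other names, such as Gm10221, which shares stretches with Atp5l, were not looked at.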

How the results depend on the processing

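For PTS + RS against RS, the 4 members called lower became 0 with a limit of 1 on the log2 fold change, 7 with DESeq2, 15 without the count filter and 9 with the replicate number as a block, beside 168, 716 and 228 genes of all called lower in the last 3 fits, against 103. With 1 library left out in turn, the number called lower ran from 3 to 20 and the number called higher from 0 to 3. In the comparison of tissue labels those ranges were 0 to 1 lower and 0 to 3 higher members. Calls over all genes also changed with the library left out, so these ranges are not particular to the members. In both comparisons the fit with the most members called lower also had the most genes of all called lower. These fits were without PTS + RS replicate 2 and without RGFP109 replicate 1. For higher calls this held between the tissue labels but not for PTS + RS against RS. The cause of these changes was not tested.

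Over the same left-out libraries, the median log2 fold change for PTS + RS against RS ran from -0.21 to -0.14 for complex II, -0.39 to -0.22 for complex III, -0.21 to -0.077 for complex IV, -0.25 to -0.12 for complex V. It ran from -0.21 to -0.039 for complex V for RGFP109 against NaCl, and from -0.12 to 0.034 for complex II, -0.088 to 0.24 for complex IV, -0.12 to 0.075 for all members between the tissue labels. As a mean log2 CPM of the members (without tissue isoforms, Cox7a2l and Atp5s) instead of a sum, the log2 differences of PTS + RS and RS were -0.19 for complex II, -0.31 for III, -0.15 for IV (against -0.078 as a sum) and -0.22 for V.

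Members close to 0 changed sign. Atp5c1 was -0.0029 with DESeq2, -0.0036 with RLE scaling, -0.0066 with no count filter for PTS + RS against RS, and Sdhd 0.0015 with DESeq2, 0.0012 with RLE scaling, 0.00059 with no count filter between the tissue labels. With a library left out, PTS + RS against RS gave log2 fold changes from -0.094 to 0.0067 for Atp5b, -0.041 to 0.019 for Sdhc, -0.0047 to 0.24 for Cox8a, -0.021 to 0.096 for Atp5g2, -0.090 to 0.13 for Uqcrb, -0.034 to 0.031 for Atp5c1, -0.020 to 0.061 for Uqcrc2. With a library left out, RGFP109 against NaCl gave log2 fold changes from -0.11 to 0.41 for Uqcr11, -0.47 to 1.71 for Cox6a2, -0.033 to 0.23 for Atp5g1, -0.058 to 0.098 for Sdha. With a library left out, the comparison of tissue labels gave log2 fold changes from -0.38 to 0.065 for Sdhc, -0.044 to 0.051 for Sdhd, -0.10 to 0.40 for Uqcr11, -0.19 to 0.33 for Atp5k.

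Samples with the same replicate number share no stated animal or batch (in the second table they share the tissue label). Their deviations from the group means correlated across genes at 0.04 in the first table and 0.30 in the second. With 2 libraries per group the deviations are mirror images, so the second pair adds no further check. With the block, 0 members were called for RGFP109 against NaCl. Compared with the values reported, 316, 164 and 155 values of the 3 comparisons kept their direction and side of the threshold, or for counts and medians moved little, over 12 alternatives each, and 33 single-member values for PTS + RS against RS passed the threshold only under an alternative.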
